A study of Danio rerio with 40 samples.

Results

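Zebrafish genes for the handling of lipid peroxides and glutathione were followed through whole brains of naglu mutants and their siblings. They were taken by symbol from the count table: gpx4a, gpx4b, gpx1a, prdx1, slc7a11, gclc, gclm, nqo1, nfe2l2a and keap1a. The 10 symbols gave 11 Ensembl genes of 32057, because prdx1 is the symbol of 2 genes, ENSDARG00000025350 and ENSDARG00000058734. The first of these may be the gene that RefSeq calls prdx2, for which prdx1 is an older name, and both are given here with their IDs. The symbol table dropped the paralog letter of gpx4b (ENSDARG00000076836) and nfe2l2a (ENSDARG00000042824). All 11 genes passed the filter on low counts, as did 19668 genes in all.

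Each library was the polyA RNA of 1 whole brain from a fish aged 6 months. The fish were heterozygous (naglu A603fs/+) or homozygous (naglu A603fs/A603fs) siblings, so every fish carried at least 1 mutant allele and the control group is heterozygous. Homozygotes model mucopolysaccharidosis type IIIB, in which heparan sulfate accumulates in lysosomes. Fish received ferric citrate (10 µg) in 0.85% saline, or saline alone, by injection into the body cavity, and were killed 7 days later. Each of the 4 combinations of genotype and injection had 10 fish.

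Ferroptosis is a form of cell death in which iron drives the peroxidation of membrane lipids. Gpx4 reduces lipid peroxides at the expense of glutathione, which cells build from cysteine that enters as cystine through the Slc7a11 antiporter. The transcription factor Nrf2, encoded here by nfe2l2a and held in check by Keap1, switches on many of the genes that make and use glutathione, and in brain this programme is strongest in astroglia. Brain is rich in polyunsaturated lipids, and iron overload is among the textbook triggers of ferroptosis.

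Library totals ran from 11772789 to 38516546 counts. There were 2 females among the heterozygous saline fish, 5 in each iron group and 7 among the homozygous saline fish, and the model held terms for sex and home tank. Each library was 1 fish, so p-values measure the spread between fish. Sample titles are numbers, called fish numbers here, and what they stand for is not known. Numbers above 40 belonged to 6 saline and 4 iron fish among the heterozygotes and to 4 saline and 6 iron fish among the homozygotes. Transcripts of naglu (ENSDARG00000030156) were counted in all groups, with medians of 3.42, 3.62, 4.48 and 3.53 CPM in that order, and cannot check the genotype because mutant and normal transcripts are counted together. On a score built from 50 genes that separate the genotypes, without the 11 redox genes, the libraries heterozygous saline 5 and heterozygous iron 5 lay at 1.08 and 1.18. The 20 homozygous libraries lay between 0.608 and 1.31 and the other 18 heterozygous libraries between -0.567 and 0.288, so genotype values of the redox genes and counts of the pathway lists are also given without these 2 libraries. All 22 neuron and 15 oligodendrocyte markers passed the filter, and the summed level of the 10 of 19 photoreceptor, lens and pineal markers that passed it ran from 4.9 to 232 CPM in single libraries. The library heterozygous saline 10 was the lowest of all 40 for 7 of the 11 redox genes, and values without it are given for some results.

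Of the 11 genes, the peroxiredoxin gene prdx1 (ENSDARG00000025350) was higher in homozygous brains, by 1.12-fold with both treatments averaged, and no other was called for genotype. The genes for glutathione synthesis, gclc and gclm, and both gpx4 genes had fitted folds between 0.978 and 1.06, and nqo1 and slc7a11 had fitted folds of 1.18 and 1.19 that did not pass the test. After saline alone, homozygous and heterozygous brains gave no call among the 11 genes at an adjusted p of 0.05 by edgeR, DESeq2 or limma voom, while edgeR called 1.25% of all genes tested. At an unadjusted p under 0.05 edgeR gave 1 of the 11. Levels are in CPM, the usual scaling of a count to its library total, here after TMM adjustment, and fold changes and p-values come from edgeR's quasi-likelihood test with Benjamini-Hochberg adjustment over all genes tested. Fitted values were higher in homozygotes for 10 of the 11 genes, against 49.9% of all genes. That number was 5 with 1 surrogate variable added, 4 within fish numbers up to 40 and 11 within numbers above 40. Many of the 11 genes were correlated between libraries, as given below, so they do not count as independent. After iron the number was 9 of 11, again with none called by any of these tools, 1 at an unadjusted p under 0.05, and 0.137% of all genes called by edgeR. With both treatments averaged, 1 of the 11 genes was called, prdx1 (ENSDARG00000025350), and it was higher in homozygotes. Over all genes 4.31% were called in that comparison, and 2.03% as higher.

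**Figure D1:**
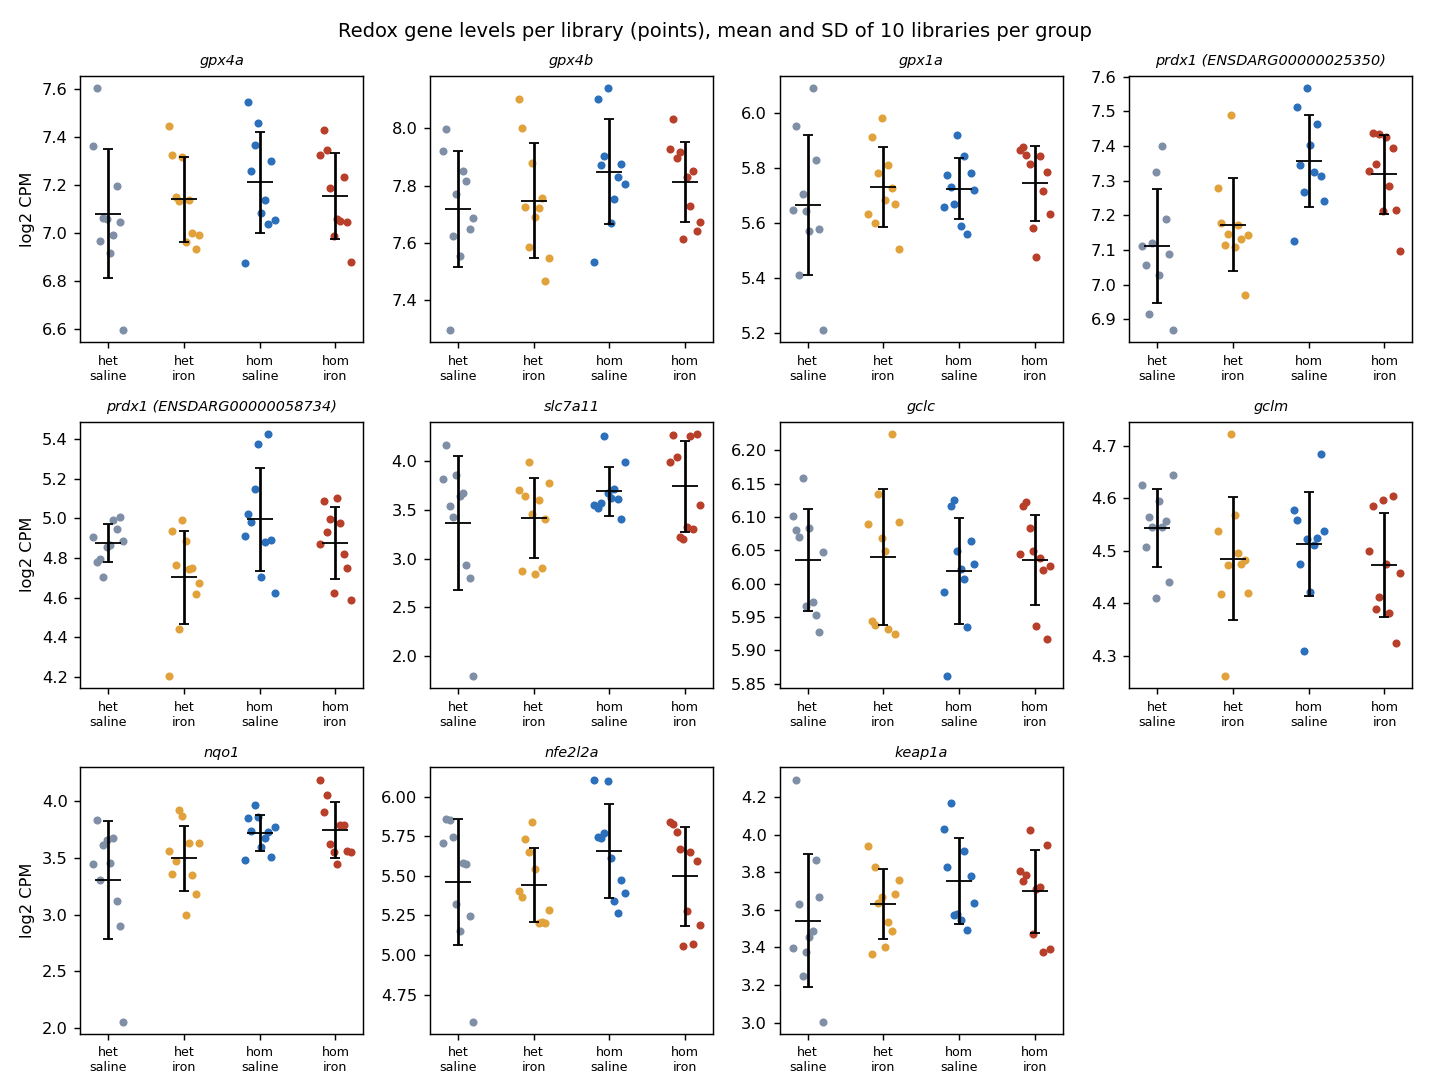
Level of each of the 11 redox genes in log2 CPM (y axis) in the 4 groups (x axis: het, heterozygous, and hom, homozygous). Points are libraries in order of fish number within a group, and the black marks are the mean and SD of 10 libraries. All groups overlap in every panel, and the low heterozygous saline point of nqo1 and slc7a11 is the same library.

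Among the peroxidases, prdx1 (ENSDARG00000025350) encodes a thioredoxin-dependent peroxiredoxin that removes hydrogen peroxide. Its level ran from 117 to 169 CPM with a median of 137 in heterozygous saline fish, and from 140 to 190 CPM with a median of 161 in homozygous saline fish. After iron the levels were 125 to 180 CPM with a median of 141 in heterozygotes, and 137 to 174 CPM with a median of 162 in homozygotes. The groups overlapped, yet all 10 homozygous saline libraries lay above the heterozygous saline median, and 7 of 10 heterozygous saline libraries lay below every homozygous saline library. Such library counts are not adjusted for sex, and 2 heterozygous and 7 homozygous saline fish were female. Medians of this gene, not adjusted for genotype, were 162 CPM in females and 141 CPM in males. Averaged over treatments the fold was 1.12, a log2 fold change of 0.17 (SE 0.05, edgeR adjusted p = 0.031), and 18 of the 20 homozygous libraries lay above the heterozygous median. Within a treatment it was not called, with log2 fold changes of 0.19 (SE 0.07, edgeR adjusted p = 0.151) in saline fish and 0.14 (SE 0.07, edgeR adjusted p = 0.562) in iron fish.

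The 2 heterozygous libraries with homozygote-like scores had 160 and 180 CPM of prdx1 (ENSDARG00000025350), both above the median of their group, and the second was the highest of its group. Without both, the averaged log2 fold change was 0.22 (SE 0.04, edgeR adjusted p = 0.000933), and the change after saline passed the threshold at 0.24 (SE 0.06, edgeR adjusted p = 0.0179). Of all genes 8.31% were then called with treatments averaged and 2.98% after saline. No other redox gene was then called for genotype. The averaged log2 fold changes were then 0.30 for nqo1 (edgeR adjusted p = 0.101), 0.28 for slc7a11 (edgeR adjusted p = 0.316), 0.17 for the second prdx1 gene (ENSDARG00000058734, edgeR adjusted p = 0.107), 0.14 for keap1a, 0.13 for nfe2l2a, 0.12 for gpx4b and 0.08 for gpx4a, and those of gpx1a, gclc and gclm lay between -0.02 and 0.03. How these libraries were picked can raise such values by itself. The call was lost without homozygous saline 2, homozygous iron 4 or heterozygous saline 6, and with 1 surrogate variable added (log2 fold change 0.13, edgeR adjusted p = 0.141). In males alone the log2 fold change was 0.17 (SE 0.06, edgeR adjusted p = 0.215) and in females alone 0.13 (SE 0.09, edgeR adjusted p = 0.771). Within fish numbers up to 40 it was 0.23 (SE 0.07, edgeR adjusted p = 0.235) and within numbers above 40 it was 0.14 (SE 0.08, edgeR adjusted p = 0.793). Each of these fits with fewer fish called 0.605% of all genes or less.

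Markers of brain cell types differed between the genotypes as well, where 4.31% of all genes were called with treatments averaged. Of 22 microglia and macrophage genes tested, 4 rose and none fell in homozygotes, with a median log2 fold change of 0.38 (0.70 after saline and 0.13 after iron). Of 10 meninges and pigment cell genes 3 rose and none fell, with a median of 0.16, and of 15 oligodendrocyte genes 13 fell, with a median of -0.50. Of 14 astroglia and radial glia genes none was called, 13 had higher values in homozygotes and the median was 0.13, and 5 had an unadjusted p under 0.05. The summed level of the astroglia list ran from 5360 to 11000 CPM in heterozygotes and from 7940 to 11400 CPM in homozygotes. The 22 neuron genes gave no call, 1 unadjusted p under 0.05 and a median of -0.04. No gene of the endothelium, erythrocyte or photoreceptor lists was called by edgeR, and 1 photoreceptor gene had an unadjusted p under 0.05. In whole brain, fewer cells of a type and less RNA per cell cannot be told apart, and the part of cell makeup in the difference of prdx1 was not tested.

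The second prdx1 gene (ENSDARG00000058734) had medians of 29.3 CPM (26 to 32) in heterozygous saline, 30.8 CPM (24.6 to 42.9) in homozygous saline, 26.8 CPM (18.4 to 31.8) in heterozygous iron and 29.8 CPM (24 to 34.3) in homozygous iron fish. These groups overlapped widely, although 4 homozygous saline libraries exceeded every heterozygous saline library. Its averaged log2 fold change was 0.13 (SE 0.07), and at an edgeR adjusted p of 0.279 it was not called. Reads shared between the 2 prdx1 genes could be split by the counting step, so their separate values are uncertain.

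Neither gpx4 gene, the pair that encodes the phospholipid hydroperoxide peroxidase, was called for genotype. In heterozygous saline fish gpx4a ran from 96.5 to 194 CPM with a median of 133, and in homozygous saline fish from 117 to 186 CPM with a median of 147. After iron its medians were 140 CPM in heterozygotes and 139 CPM in homozygotes. The averaged fold was 1.04 with a 95% confidence interval of 0.937 to 1.15. For gpx4b the medians were 212, 231, 211 and 229 CPM in heterozygous saline, homozygous saline, heterozygous iron and homozygous iron fish, and the averaged fold was 1.06 (0.974 to 1.16). The cytosolic glutathione peroxidase gene gpx1a had medians of 50, 52.9, 52.1 and 55.7 CPM in the same order, and its averaged fold was 1.01 (0.924 to 1.09).

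Of the genes for glutathione supply, slc7a11, the cystine-glutamate antiporter, was the most variable of the 11, with an SD of 0.49 in log2 CPM over the 40 libraries. It ran from 3.4 to 17.8 CPM with a median of 11.9 in heterozygous saline fish, from 10.5 to 19 CPM with a median of 12.2 in homozygous saline fish, from 7.09 to 15.8 CPM with a median of 11.5 in heterozygous iron fish and from 9.09 to 19.3 CPM with a median of 13.7 in homozygous iron fish. The groups overlapped, and 5 of 10 homozygous iron libraries lay above every heterozygous iron library. Its averaged log2 fold change was 0.25 (SE 0.15), and it was not called. The lowest value, 3.4 CPM, was that of heterozygous saline 10, and the fold change of slc7a11 without this library is not given here. Both subunits of glutamate-cysteine ligase, the rate-limiting enzyme of glutathione synthesis, were the steadiest of the 11 genes, with an SD of 0.08 for gclc and 0.10 for gclm on the same scale. The catalytic subunit gene gclc had group medians between 65.1 and 66.6 CPM and an averaged fold of 0.997 (95% confidence interval 0.955 to 1.04), and the modifier subunit gene gclm had medians between 22 and 23.4 CPM and a fold of 0.978 (0.928 to 1.03).

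The quinone reductase gene nqo1, a classical Nrf2 target, had the second largest fitted genotype difference of the 11 with treatments averaged, after slc7a11, and the largest after saline alone (0.31 against 0.30 on the log2 scale). Its level ran from 4.08 to 14.2 CPM with a median of 10.9 in heterozygous saline fish and from 11.1 to 15.5 CPM with a median of 13.2 in homozygous saline fish. After iron it ran from 7.92 to 15.1 CPM with a median of 11.4 in heterozygotes and from 10.8 to 18.2 CPM with a median of 13 in homozygotes. Without adjustment for sex or tank, 19 of the 20 homozygous libraries lay above the heterozygous median, and 9 of the 20 heterozygous libraries lay below every homozygous one. The averaged log2 fold change was 0.24 (SE 0.11, edgeR adjusted p = 0.202), and 0.23 (SE 0.09, edgeR adjusted p = 0.129) without heterozygous saline 10. It passed the threshold only in the fit without sex and tank terms, at 0.30 (SE 0.10, edgeR adjusted p = 0.0372). In that fit the unequal numbers of females are not allowed for, and 12.7% of all genes were called. With 1 surrogate variable the log2 fold change of nqo1 was 0.12.

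The Nrf2 gene itself, nfe2l2a, and keap1a, which encodes the adaptor that marks Nrf2 for breakdown, were not called for genotype. Medians of nfe2l2a were 47.7, 51.1, 41.7 and 49.2 CPM in heterozygous saline, homozygous saline, heterozygous iron and homozygous iron fish, with single libraries between 23.8 and 68.8 CPM. The averaged fold was 1.07 (95% confidence interval 0.923 to 1.25). Medians of keap1a were 11, 13, 12.5 and 13.3 CPM in the same order, and its fold was 1.09 (0.971 to 1.23).

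**Figure D2:**
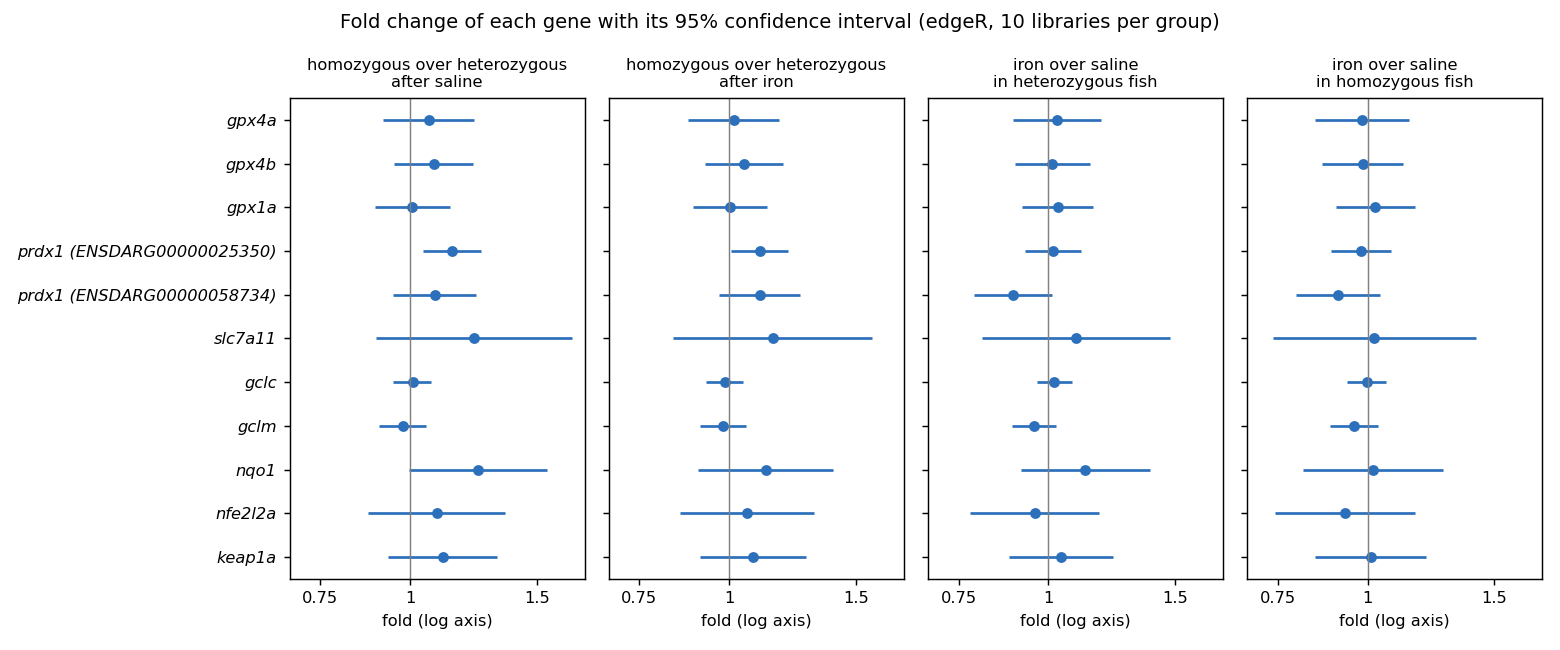
Fold change (x axis, log scale) of each redox gene (y axis) for genotype within each treatment and for iron within each genotype. Points are edgeR estimates and lines 95% confidence intervals. The interval of prdx1 (ENSDARG00000025350) lies above 1 in both genotype panels, and in both iron panels every interval includes 1.

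Iron left no call on any of these genes 7 days after injection. In heterozygotes 0 of 11 were called, where 0% of all 19668 genes were called by edgeR, 0 by DESeq2 and 0 by limma voom. At an unadjusted p under 0.05 edgeR gave 0 of the 11 genes and 662 of all genes (3.37%). In homozygotes 0 of 11 were called, again 0% of all genes by edgeR and 0 by both other tools, and at an unadjusted p under 0.05 there were 0 of the 11 and 287 of all genes (1.46%). Fold changes of the 11 genes lay within 95% confidence intervals that reached from 0.779 to 1.47 in heterozygotes and from 0.739 to 1.41 in homozygotes. The widest interval belonged to slc7a11 in both genotypes, while that of gclc was 0.963 to 1.08 in heterozygotes and 0.937 to 1.06 in homozygotes.

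Averaged over genotypes, 0 of 11 genes and 0% of all genes were called for iron by edgeR, DESeq2 and limma voom. Here 376 genes (1.91%) had an unadjusted p under 0.05 in edgeR, and 1 of them was a redox gene, prdx1 (ENSDARG00000058734). Its fitted log2 value for iron over saline was -0.15 (SE 0.06, unadjusted p = 0.0254, edgeR adjusted p = 1), and 4 of 10 heterozygous iron libraries lay below every heterozygous saline library. For gpx4a the fold was 1.01 (0.909 to 1.11), for gpx4b 0.999 (0.915 to 1.09) and for gclm 0.955 (0.907 to 1.01). The interaction, which asks whether iron acted differently in homozygotes, called 0 of 11 genes and 0% of all genes by each of the 3 tools, and at an unadjusted p under 0.05 there were 0 of the 11 and 498 of all genes (2.53%). Its intervals were wide, from 0.591 to 1.48 over the 11 genes.

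The wider pathway was read from 5 lists of genes. With treatments averaged, 6 of 42 tested genes of the Nrf2 pathway and its textbook targets rose in homozygotes and 2 fell, where 4.31% of all genes were called, and the list median log2 fold change was 0.08, where the median of all genes lay within 0.01 of 0. The heme oxygenase gene hmox1, which breaks down heme and frees iron, rose by 0.56 on the log2 scale (SE 0.14, edgeR adjusted p = 0.0196). The autophagy receptor gene sqstm1, whose protein p62 binds Keap1, rose by 0.27 (SE 0.06, edgeR adjusted p = 0.00284), and the glutathione transferase gene gstp1.2 by 0.29 (SE 0.07, edgeR adjusted p = 0.0202). The pentose phosphate pathway enzyme gene pgd rose by 0.19 (SE 0.05, edgeR adjusted p = 0.0269). The other risers were prdx1 (ENSDARG00000025350) and taldo1, a further enzyme of the same pathway (0.16). The first of these may be prdx2, as said above, and the list names prdx1 but not prdx2. The genes that fell were those of the transcription factors maff (-0.16) and bach2 (-0.22). The genes taldo1, maff and bach2 are named because few genes were called. The Nrf2 targets gclc and gclm had the folds close to 1 given above.

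Among 24 genes of glutathione peroxidases, peroxiredoxins, the thioredoxin system, superoxide dismutases and catalase, 2 rose and 1 fell, again beside 4.31% of all genes, with a median of 0.08. The gene for an endoplasmic reticulum peroxidase, gpx8, rose by 0.54 (SE 0.15, edgeR adjusted p = 0.0286), prdx1 (ENSDARG00000025350) rose as above, and txnrd2 (ENSDARG00000075923), a thioredoxin reductase gene, fell by 0.23 (SE 0.07, edgeR adjusted p = 0.0413). Of 21 genes for glutathione synthesis, recycling and cysteine supply, 1 rose and none fell. This was slc3a2a, a copy of the heavy chain with which Slc7a11 pairs at the membrane, at 0.50 (SE 0.12, edgeR adjusted p = 0.00931). The list median was 0.01.

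Of 46 genes of lipid peroxidation and ferroptosis none rose and 2 fell, about the share of all genes called (4.31%), with a median of 0.01. The long-chain acyl-CoA synthetase gene acsl1 fell by 0.23 (SE 0.06, edgeR adjusted p = 0.0138), and it was the only gene of the 5 lists called after saline alone, where it fell by 0.33 (SE 0.08, edgeR adjusted p = 0.0322). The acyltransferase gene mboat2 (ENSDARG00000031845) fell by 0.23 (SE 0.07, edgeR adjusted p = 0.0489). None of 23 selenoprotein synthesis genes was called by edgeR, DESeq2 or limma voom, and 5 had an unadjusted p under 0.05 in edgeR. The lists share genes. No gene of any list was called by edgeR for genotype after iron or for iron in either genotype, and at an unadjusted p under 0.05 iron gave 1 glutathione gene and 2 ferroptosis genes in heterozygotes and 1 ferroptosis gene in homozygotes. Without heterozygous saline 5 and heterozygous iron 5 the counts called were 10 of the Nrf2 list, 6 of the peroxidase list, 1 of the glutathione synthesis list, 5 of the ferroptosis list and 1 of the selenoprotein list, where 8.31% of all genes were called.

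**Figure D3:**
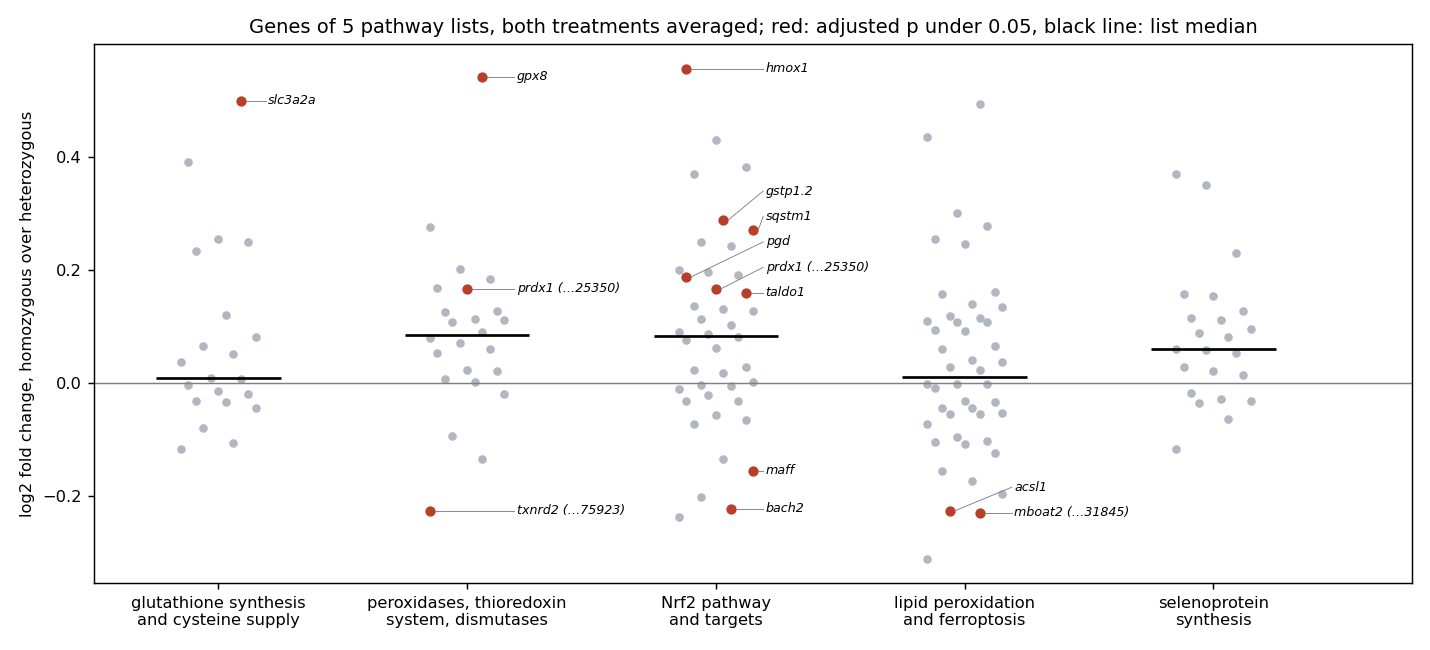
Log2 fold change, homozygous over heterozygous with treatments averaged (y axis), of the tested genes of 5 pathway lists (x axis). Each point is 1 gene, red points passed the adjusted threshold and are named, and black lines are list medians, from 0.01 to 0.08.

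Sex and redox gene levels were compared in the same model. None of the 11 genes was called between females and males by edgeR, DESeq2 or limma voom, where 2.44% of all genes were called by edgeR, and 1 of the 11 had an unadjusted p under 0.05. That gene was prdx1 (ENSDARG00000025350), with a log2 fold change of 0.11 (SE 0.05, edgeR adjusted p = 0.185), a fold of 1.08. Its medians were 162 CPM in 19 females and 141 CPM in 21 males. These medians are not adjusted for genotype, and among saline fish 7 homozygotes but 2 heterozygotes were female. Of the pathway lists, 3 genes were called, each higher in females. They were the cystathionine beta-synthase gene cbs at 0.68 (SE 0.15, edgeR adjusted p = 0.0072), the polyamine enzyme gene sat1 (ENSDARG00000095908) at 0.28 (SE 0.05, edgeR adjusted p = 0.00174) and the selenoprotein gene selenow1 at 0.17 (SE 0.05, edgeR adjusted p = 0.0347).

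The largest fitted difference among the 11 genes followed fish number. The split at 40 was taken from earlier work on these data, so p-values of this comparison are not those of a split set beforehand. The transcription factor gene nfe2l2a ran from 41.2 to 68.8 CPM with a median of 53.6 in the 20 fish numbered up to 40, and from 23.8 to 50.2 CPM with a median of 38.6 in the 20 fish numbered above 40. All 20 libraries above 40 lay below the median of those up to 40, and 16 of the 20 libraries up to 40 exceeded every library above 40. With group, sex and tank in the model, nfe2l2a fell by 0.46 on the log2 scale (SE 0.07, edgeR adjusted p = 8.46e-06) to a fold of 0.728. In that comparison 2 of the 11 genes were called, both lower, where 21.4% of all genes were called and 10.6% as lower.

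The other was gpx4a, which ran from 117 to 194 CPM with a median of 160 up to 40 and from 96.5 to 157 CPM with a median of 132 above 40. Again all 20 libraries above 40 lay below the median of those up to 40. It fell by 0.24 (SE 0.06, edgeR adjusted p = 0.00317), a fold of 0.849. Its paralog gpx4b had medians of 239 and 214 CPM, and its 20 libraries above 40 also all lay below the median of those up to 40. Yet gpx4b was not called (log2 value -0.13, SE 0.06, edgeR adjusted p = 0.0946), nor was nqo1 (-0.24, SE 0.10, edgeR adjusted p = 0.0649). Without homozygous saline 1 both were called, which made 4 of 11. The share of all genes called in that fit is not given here, so this count has no background beside it. A higher fitted value above 40 was found for 1 of the 11 genes, gclm at 0.01, against 47.9% of all genes.

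**Figure D4:**
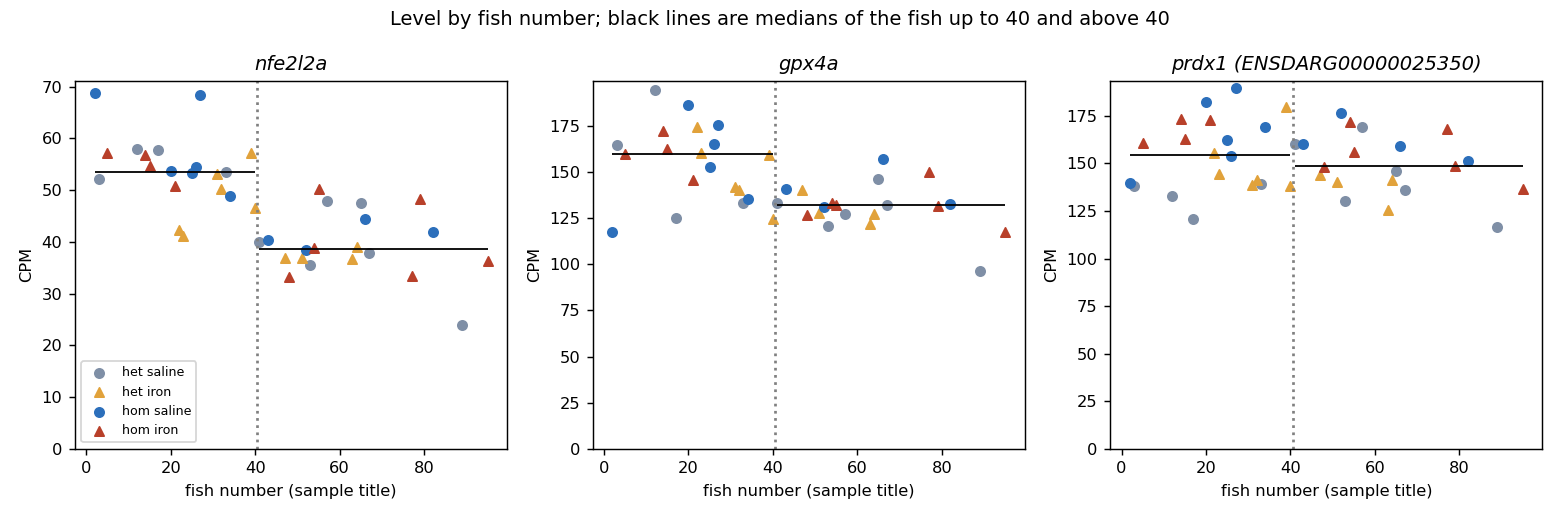
Level in CPM (y axis, from 0) of nfe2l2a, gpx4a and prdx1 (ENSDARG00000025350) against fish number (x axis) in 40 libraries. Colours and symbols mark the 4 groups, and black lines the medians of fish up to 40 and above 40, which are 53.6 and 38.6 CPM for nfe2l2a, 160 and 132 CPM for gpx4a, and 155 and 149 CPM for prdx1.

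The step in nfe2l2a was present in each of the 4 groups. In heterozygous saline fish its median was 55.6 CPM in 4 fish up to 40 and 38.9 CPM in 6 above, and in homozygous saline fish 54.1 CPM in 6 and 41.2 CPM in 4. In heterozygous iron fish the medians were 48.4 and 36.8 CPM, and in homozygous iron fish 55.7 and 37.6 CPM. Fish up to 40 and fish above 40 did not overlap in any of the 4 groups for this gene, in a comparison that called 21.4% of all genes. The share of all genes without such overlap was not counted, so how unusual this is cannot be told. In order of fish number, the medians of 4 sets of 10 fish were 55.7, 53.2, 38.6 and 38.4 CPM, so the difference lay between the second and the third set. It was called in males alone (-0.47, SE 0.10, edgeR adjusted p = 0.0207) and in females alone (-0.59, SE 0.08, edgeR adjusted p = 0.00243), whereas gpx4a was called in neither (edgeR adjusted p = 0.0519 and 0.338). The fit of males alone called 1.6% of all genes for fish number, and that of females alone 3.95%.

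Some marker genes were called for fish number too, where 21.4% of all genes were called and 10.6% as lower. Of 14 astroglia genes 7 were lower above 40 and none higher, with a median of -0.19. Of 22 microglia genes 2 were lower and 1 higher, a called share below that of all genes, with a median of -0.32. Of 15 endothelium genes 3 were lower and 1 higher, and of 15 oligodendrocyte genes 1 was lower. No erythrocyte or photoreceptor gene was called. Of 10 meninges and pigment cell genes 4 were lower, and of 22 neuron genes 8 were higher. The summed astroglia level ran from 7130 to 11400 CPM up to 40 and from 5360 to 10600 CPM above 40. The part of cell makeup in the levels of nfe2l2a and gpx4a was not tested.

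Genes of the pathway lists also differed with fish number, in a comparison that called 21.4% of all genes, 10.6% as lower. In the glutathione list 2 of 21 genes fell and 2 rose, glrx3 (0.16) and slc3a2 (0.17). The gamma-glutamylcyclotransferase gene ggct fell by 0.69 (SE 0.10, edgeR adjusted p = 1.05e-05) and the glutathione synthetase gene gss by 0.46 (SE 0.07, edgeR adjusted p = 2.25e-05). In the peroxidase list 4 of 24 fell and none rose, among them gpx8 (-0.42), txnrd3 (-0.16) and the secreted peroxidase gene gpx3 (-0.16). In the Nrf2 list 5 of 42 fell, with the smallest p for the transporter gene abcc1 (-0.27, SE 0.04, edgeR adjusted p = 2.98e-06), and 3 rose, among them cul3 (ENSDARG00000038967) at 0.09. The called shares of these 3 lists were below that of all genes. In the ferroptosis list 10 of 46 fell and 5 rose, with the smallest p for por (ENSDARG00000059035), which fell by 0.36 (SE 0.07, edgeR adjusted p = 0.000272). In the selenoprotein list 3 of 23 fell, with the smallest p for the selenium carrier gene selenop (-0.58, SE 0.12, edgeR adjusted p = 0.000665). There 3 rose, among them sephs1 (0.135). The called shares of the ferroptosis and selenoprotein lists were above that of all genes.

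Across the 40 libraries, with the means of group, sex and tank removed, the 11 genes formed 55 pairs. Of these 46 had a positive Pearson's r, and 20 passed an adjusted p of 0.05 by permutation, all of them positive, while 17 passed by Spearman's rho. The permutations treated the 40 residuals as independent, although the model left 31 degrees of freedom. Permutation p-values here and for the marker lists below are therefore somewhat too small, and those near the threshold are uncertain. These 20 had an r of at least 0.37, as did 8.85% of all pairs of the 19668 genes, of which 49.5% were positive. With the step at fish number 40 removed as well, 36 of the 55 were positive. Then 18 of the 55 (32.7%) reached 0.37, all of them among the 20, beside 7.34% of all pairs. The other 2 of the 20 were gpx4a with nfe2l2a and gpx4a with keap1a. The first went from 0.537 to 0.170 and was 0.0478 within fish up to 40, and the second went from 0.374 to 0.265. The largest r was that of slc7a11 with nqo1, 0.816 (rho 0.744), and it was 0.701 within fish up to 40, 0.848 above 40, 0.740 without heterozygous saline 10 and 0.733 without the 2 libraries farthest from the median. The pair gpx4a and gpx4b followed with 0.777 (rho 0.817), 0.850 up to 40 and 0.483 above 40, and 0.825 without the 2 farthest libraries. For both pairs, and by both coefficients, the permutation p was 1e-05, the smallest that 100000 permutations can give, with adjusted p = 0.000183 for r and 0.000275 for rho.

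The next pairs were gpx4b with prdx1 (ENSDARG00000025350) at r = 0.657 (rho 0.616), gpx4a with nqo1 at 0.642 (rho 0.616) and gpx1a with nqo1 at 0.603 (rho 0.466). Within fish up to 40 and above 40 their r was 0.703 and 0.647 for the first, 0.563 and 0.624 for the second, and 0.443 and 0.653 for the third. Without the 2 farthest libraries r was 0.646, 0.516 and 0.428. Permutation p for r was 1e-05, 2e-05 and 6e-05, and adjusted p = 0.000183, 0.000275 and 0.000471. For rho it was 5e-05, 5e-05 and 0.00263, and adjusted p = 0.000458, 0.000458 and 0.0111. No pair with gclc or gclm passed, and r between gclc and gclm was 0.292.

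**Figure D5:**
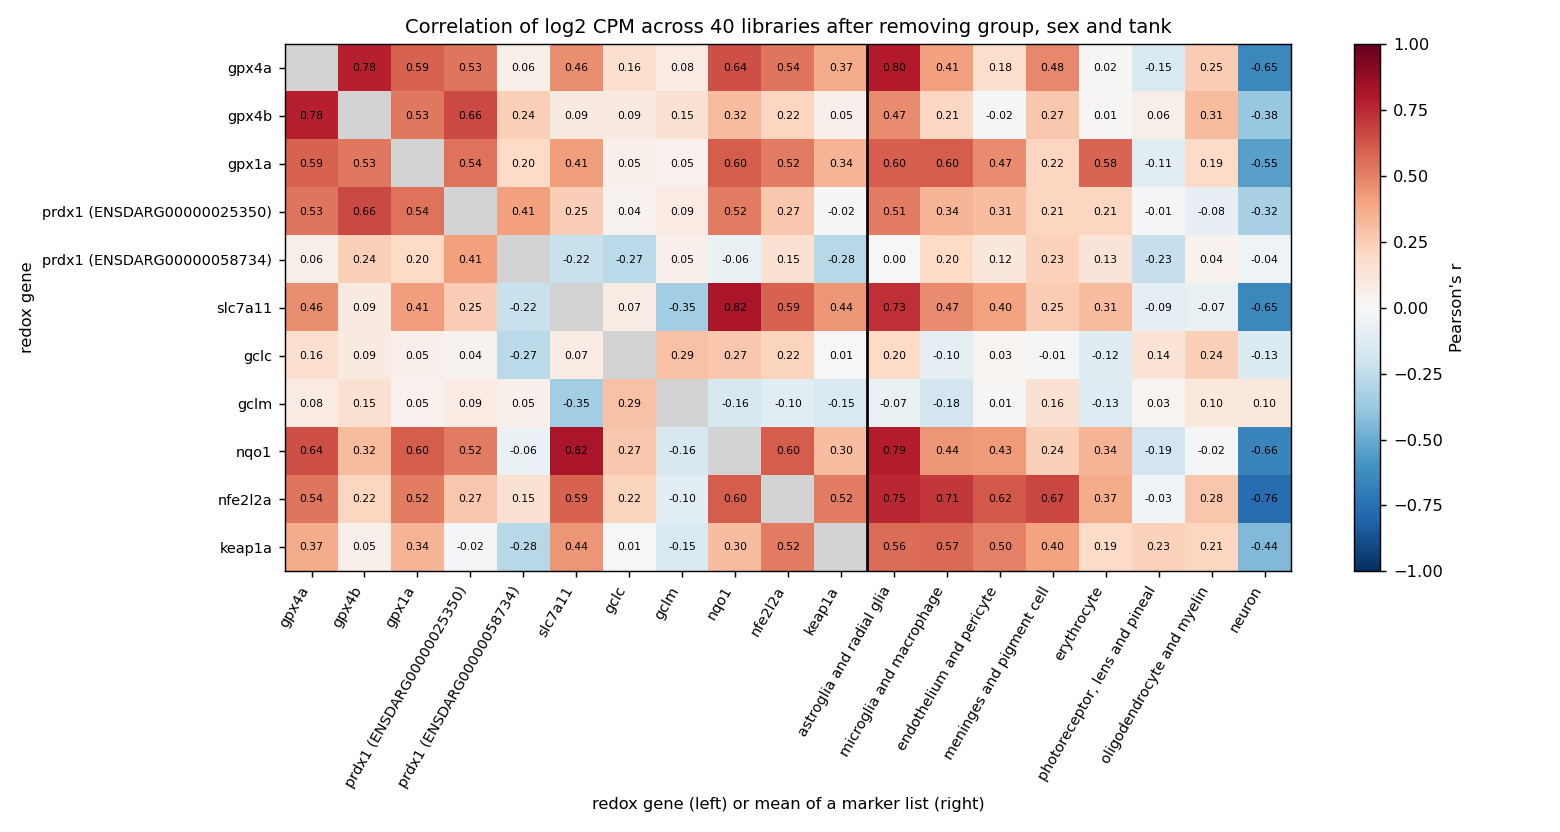
Pearson's r (colour and number) between the 11 redox genes (rows) and each other (left columns) or the mean of each of 8 cell type marker lists (right columns), over 40 libraries after group, sex and tank means were removed. Among gpx4a, gpx1a, slc7a11, nqo1 and nfe2l2a r runs from 0.415 to 0.816. Within fish up to 40 it was -0.099 for gpx1a with slc7a11. There nfe2l2a had 0.0478 with gpx4a, 0.127 with slc7a11 and 0.164 with nqo1, and the other pairs of these 5 genes had 0.221 to 0.701. Above 40 the pairs had 0.447 to 0.848. The same 5 rows have 0.601 to 0.796 with astroglia, 0.409 to 0.709 with microglia and -0.763 to -0.546 with neuron markers. For gpx4a, nqo1 and slc7a11 r with microglia was 0.211, 0.0906 and -0.182 within fish up to 40. For slc7a11, r is 0.0908 with gpx4b and -0.219 with prdx1 (ENSDARG00000058734).

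The same values were set against 8 lists of cell type markers, 88 relations in all, of which 31 passed an adjusted p of 0.05 by r and 23 by rho. These 31 of the 88 (35.2%) had an r of at least 0.37 in size, as did 23% of the relations of all 19668 genes with the 8 lists. With the step at fish number 40 removed, 25 of the 88 (28.4%) reached it, 24 of them among the 31, beside 17% over all genes. The astroglia mean had r = 0.796 with gpx4a (rho 0.746), 0.786 with nqo1 (rho 0.759), 0.751 with nfe2l2a (rho 0.687) and 0.731 with slc7a11 (rho 0.681). Each had a permutation p of 1e-05 by both coefficients, the smallest possible, with adjusted p = 8.8e-05 for r and 0.000147 for rho. Up to 40 and above 40 the r was 0.840 and 0.677 for gpx4a, 0.672 and 0.777 for nqo1, 0.335 and 0.809 for nfe2l2a, and 0.595 and 0.769 for slc7a11. Without the 2 farthest libraries these were 0.719, 0.687, 0.723 and 0.616. The neuron mean had r = -0.763 with nfe2l2a (rho -0.727, the same permutation and adjusted p), with -0.527 up to 40, -0.739 above 40 and -0.740 without the 2 farthest. Such values were not confined to these lists. For nfe2l2a r was 0.709 with microglia, 0.671 with meninges and 0.617 with endothelium. With the step at fish number 40 removed it was 0.738 with microglia and 0.798 with endothelium, against 0.628 with astroglia and 0.41 with meninges. With microglia and astroglia r was 0.602 and 0.601 for gpx1a, and 0.567 and 0.561 for keap1a. With microglia it was lower than with astroglia for gpx4a (0.409), nqo1 (0.440) and slc7a11 (0.472). In that order these microglia values were 0.211, 0.0906 and -0.182 up to 40, and 0.404, 0.506 and 0.719 above 40. Without heterozygous saline 10 they were 0.291, 0.247 and 0.316. None of them passed by rho (permutation adjusted p = 0.0734, 0.0598 and 0.0598). For gclc, gclm and the second prdx1 gene (ENSDARG00000058734) r with the astroglia mean was 0.200, -0.0671 and 0.00247. Shared scaling, depth and RNA quality also link genes within a library, and their part was not tested.

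Over 13785 genes with a symbol and mean log2 CPM no lower than 1, the genes most like each redox gene were listed by Pearson's r of the same values over 40 libraries, as a description. For nqo1 they were kcnj10 (ENSDARG00000105022), a potassium channel gene, at 0.929, atp1b4 at 0.926 and s1pr1 at 0.913. For slc7a11 they were gpc4 at 0.905, the glutamate transporter gene slc1a2 at 0.904, which is on the astroglia list, and st6gal2 at 0.902. These 6 values were between 0.848 and 0.876 without heterozygous saline 10. For nfe2l2a they were slc2a12 at 0.884, krt8 at 0.880 and snx9 (ENSDARG00000069302) at 0.876, and with the step at fish number 40 removed 0.712, 0.809 and 0.846. For keap1a they were stard13 (ENSDARG00000098954) at 0.859, snx22 at 0.842 and mdm2 at 0.839.

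For gpx4b the closest genes were cox6b2, a cytochrome c oxidase subunit gene, at 0.902, the ATP synthase subunit gene atp5mf at 0.901 and the ribosomal protein gene rps27.2 at 0.895. For gpx4a they were eif4e2rs1 at 0.885, sec61g at 0.880 and btf3 at 0.847. For prdx1 (ENSDARG00000025350) they included the ribosomal protein gene rpl10 at 0.837 and selenow1 at 0.827. For gpx1a they were tspo at 0.796, dhdh.1 at 0.758 and gsdme at 0.747. The remaining 3 genes had no close match. The highest r was 0.669 for gclc (pi4k2a), 0.642 for gclm (pax2, ENSDARG00000032578) and 0.616 for prdx1 (ENSDARG00000058734), with th2.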

How the data were processed

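PolyA RNA of 40 whole zebrafish brains was sequenced, 10 in each of 4 groups that the labels define by genotype and treatment. Raw counts for Ensembl genes were deposited, made by the authors with fastp, STAR, UMI-tools and featureCounts on the build GRCz11, per the submitters' processing notes. The sources used here do not give versions, strand handling or the treatment of duplicate molecules, so reads of overlapping genes or near-identical paralogs may be misassigned.

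Symbols came from a table that matched 28988 of the 32057 genes (90.4%). The counts went into edgeR 4.0.16 (R 4.3.3). A filter with filterByExpr at a minimum count of 10 left 19668 genes, TMM scaled the libraries, and a robust quasi-likelihood model fitted group means with sex and tank effects (9 coefficients, 31 residual degrees of freedom). The fish number comparison added a term for numbers above 40, a split taken from earlier work on these data. P-values were adjusted over all genes tested by the Benjamini-Hochberg method, with a threshold of 0.05. Levels are CPM, or log2 CPM with a prior count of 2. Correlations used residuals of log2 CPM after group, sex and tank, with 100000 permutations that treated the 40 residuals as independent. The genotype score came from limma 3.58.1 with the scored library left out.

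Alternatives covered other size factors and filters, DESeq2 1.42.0, limma voom, fits with other covariates or with 1 surrogate variable (sva 3.50.0), 1 sex or fish number range alone, and each library left out in turn. The genotype score, sets of 10 fish by number, list counts and correlations under other settings, and shares over all gene pairs were chosen after seeing the data. The fitting step was tested on simulated data. The 11 genes and all lists were chosen with earlier results of these data known. Named were all 11 genes, up to 5 called genes per list and comparison by smallest p, and the 3 genes most like each, of which 1 is not reported here. Sequences were not used here.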

Additional observations from a re-analysis of the deposited data

Results flagged for a closer look

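In heterozygous saline fish the library heterozygous saline 10 lay far below the other 9 for nqo1, at a log2 CPM of 2.06 (4.08 CPM), while the next lowest library had 2.90. The gap made up 0.474 of the whole range of the group. This was the single far sample in 44 combinations of gene and group, where chance flags about 1 in 20. The same library was the lowest of all 40 for 7 of the 11 genes, among them slc7a11 at 3.4 CPM and nfe2l2a at 23.8 CPM, but not for gclc (66 CPM) or gclm (24.9 CPM). Its summed astroglia level of 5360 CPM was the lowest of its group, and the part of cell makeup in these values was not tested.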

How the results depend on the processing

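Over 501 recomputed counts of called redox genes, 486 were equal to the reported count or within 1.5 times of it and 15 were not. Many of the 486 set 0 beside 0, as for iron and the interaction, where 0% of all genes were called by edgeR. Agreement of such counts is no sign of a stable result. Of 1551 recomputed fold changes of single genes none reversed a call, 7 lost and 3 gained one, and 176 that were not called changed sign. After saline, 1 gene, prdx1 (ENSDARG00000025350), was called without sex and tank terms, and 1, the same gene, without heterozygous saline 5 and heterozygous iron 5. Those fits called 11.4% and 2.98% of all genes. Leaving out 1 library at a time gave 0 to 1, with 1 without heterozygous saline 5. For genotype averaged over treatments, 2 genes were called without sex and tank terms (prdx1 and nqo1), beside 12.7% of all genes. With 1 surrogate variable 0 were called, beside 2.48% of all genes. The count was also 0 in males alone, in females alone, in fish numbers up to 40 and in fish numbers above 40. The last 4 fits have fewer fish, and they called 0.605%, 0%, 0.00513% and 0.00504% of all genes in that order. Leaving out 1 library at a time gave 0 to 1. For fish number, 1 gene was called in males alone and 1 in females alone, nfe2l2a in both, beside 1.6% and 3.95% of all genes. Leaving out 1 library at a time gave 2 to 4. For all fits with 1 library left out, the shares of all genes called are not given here. Where a call changed without fewer fish, the cause was not tested. Iron, the interaction and sex gave 0 under each setting run. The called genes of the pathway lists for genotype also depended on the fit. With 1 surrogate variable 1 of the Nrf2 list and 0 of the peroxidase list were called, beside 2.48% of all genes. Without sex and tank terms 11 and 6 were called, beside 12.7% of all genes. No paired analysis was possible because each library is a different fish and replicate numbers only name libraries. The lowest counts in a library were 100 for slc7a11, 120 for nqo1 and 123 for keap1a, and how far depth limits each gene was not compared.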
